A study of Mus musculus with 2 samples.

Results

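The Ly6 family of lymphocyte surface antigens was described in 2 cultures of mouse CD8+ T cells, 1 carrying an empty vector and 1 overexpressing the T-box transcription factor Eomes. The members were the rows whose gene symbol is *Ly6a*, *Ly6c1*, *Ly6c2*, *Ly6e*, *Ly6g* or *Ly6k*, 6 of the 14732 symbols listed in at least 1 of the 2 libraries. *Ly6g* was listed only for the Eomes-overexpressing culture, and the other 5 were listed in both. The rule uses the symbols alone and no measured value.

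Ly6 proteins are small and share a fold held together by disulfide bonds, and most of them are tethered to the outer leaflet of the cell membrane by a glycosylphosphatidylinositol (GPI) anchor. In the mouse many are used as surface markers: Sca-1, encoded by *Ly6a*, is found on stem cells and on activated T cells, the Ly6C antigens, encoded by *Ly6c1* and *Ly6c2*, on monocytes and on effector and memory CD8+ T cells, and Ly6G on neutrophils. *Ly6e*, *Ly6a* and the Ly6C genes are also known to respond to interferons.

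Both cultures came from spleen and lymph node CD8+ T cells of OT-I mice on the C57BL/6 background, 6 to 8 weeks old, whose transgenic T cell receptor sees the ovalbumin peptide SIINFEKL. The cells were activated for 24 h with 2.5 ng/mL of peptide and 10 U/mL of IL-2 and were then transduced with the retroviral vector RVKM, which also encodes human CD2 (hCD2) behind an internal ribosome entry site. The control received the vector without an insert and the other culture received it with *Eomes*, so hCD2, the virus and the transgenic receptor were common to both. At 48 h hCD2+ cells were sorted, 40000 per well, and stimulated again for 3 days at the same doses before total RNA was taken. *Eomes* was driven from a retrovirus, which limits the culture as a model of cells that raise their own *Eomes*. One library was sequenced per condition, so no value below has a replicate error and no test between the conditions was possible.

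Values are read numbers divided by transcript length and library depth (RPKM, called FPKM in the files), so levels of different genes are compared per length. The control library listed 14110 genes and the Eomes-overexpressing library, called the Eomes library here, 13966, at a median RPKM of 5.71 and 5.84. The depths, read from the steps between low values, were about 19646365 and 19493177 reads. *Eomes* itself, which checks the labels, had an RPKM of 2.47 in the control and 129.6 in the Eomes library, 52.5-fold. All 8 CD8 T cell markers were listed, with summed RPKM of 9646 and 9616, a sum set mostly by *Gzmb*. The log2 ratios of 7 of the 8 were below 0, at a median of -0.25, and *Cd8a* was lowest, at 181.8 in control and 99.1 in the other library. A gene is called expressed when its RPKM reaches 1 in at least 1 library, and a ratio is called past the threshold from 1.5-fold, the fold used in the study.

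The 6 genes lie within 362 kb of chromosome 15 (mm10) in the order *Ly6k*, *Ly6e*, *Ly6a*, *Ly6c1*, *Ly6c2*, *Ly6g*, with gaps between neighbours of 35.0 to 155 kb. The coding sequences of *Ly6c1* and *Ly6c2*, 396 bases each in the GENCODE vM21 annotation, were identical at 387 positions (97.7%) and could be aligned without a gap. Their first 300 bases are printed 5′ to 3′ because short reads must be told apart between them to give each gene its own value. Capitals mark 7 of the 9 positions at which the 2 genes differ, the other two lying further on, and the longest identical run was 188 bases.
Ly6c1: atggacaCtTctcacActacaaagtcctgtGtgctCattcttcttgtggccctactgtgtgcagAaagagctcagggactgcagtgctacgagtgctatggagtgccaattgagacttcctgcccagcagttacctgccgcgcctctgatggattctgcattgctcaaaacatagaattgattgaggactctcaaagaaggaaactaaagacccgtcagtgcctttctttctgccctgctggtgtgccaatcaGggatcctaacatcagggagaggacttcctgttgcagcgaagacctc
Ly6c2: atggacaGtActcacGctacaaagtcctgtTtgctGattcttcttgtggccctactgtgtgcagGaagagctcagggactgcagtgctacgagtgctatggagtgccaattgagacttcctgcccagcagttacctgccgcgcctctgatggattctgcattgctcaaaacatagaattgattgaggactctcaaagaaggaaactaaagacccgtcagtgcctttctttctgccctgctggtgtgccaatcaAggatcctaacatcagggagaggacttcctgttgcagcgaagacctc

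Of all 50-base stretches of the annotated *Ly6c1* transcripts, 32.8% also occurred in transcripts of another gene, and 21.5% occurred in those of *Ly6c2*. For *Ly6c2* the share was 14.4%, and for *Ly6a* 19.0%. At 100 bases these shares were 10.1% for *Ly6c1*, 5.81% for *Ly6c2* and 1.45% for *Ly6a*. The stretches of *Ly6c2* include those of a retained-intron transcript of 2680 bases, while its longest protein-coding transcript has 822. The shares of *Ly6c2* can therefore understate the overlap of its protein-coding RNA, for which no share was computed. *Ly6g* shared 0.448% of its 50-base stretches, and *Ly6e* and *Ly6k* shared none. Only exact matches were counted, and how the reads were divided between such copies is not given beyond the name of the tool, RSEM, so single values of *Ly6c1*, *Ly6c2* and *Ly6a* are uncertain in that respect. The *Ly6a* coding sequence was 83.2% identical to that of *Ly6g* and 82.0% to that of *Ly6c1*. *Ly6e* and *Ly6k* stand apart in sequence, at 47.1% to 53.0% and 46.6% to 48.4% identity with the other 5 members.

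RefSeq promoter windows (GRCm38.p6, from 250 bases before to 50 bases after the start site) were at hand for *Ly6c1*, *Ly6c2* and *Ly6g*. No other member had one, and these windows are shown for that reason. Each of the 3 genes had 2 windows, and the 1 with its start site nearest to the annotated start of the gene was used. The 3 genes are also the members with the highest ratios below, and no window of a member with a lower ratio could be set beside theirs. The window positions are chr15:75048788-75049087 on the minus strand, chr15:75111922-75112221 on the minus strand and chr15:75155011-75155310 on the plus strand. Capitals mark the 16-base run GATGCCAGCTGGGAGG and the letters TATAAA where they occur. The run was chosen as the longest one that all 3 windows hold, so its presence in them was fixed by that choice.
Ly6c1 promoter: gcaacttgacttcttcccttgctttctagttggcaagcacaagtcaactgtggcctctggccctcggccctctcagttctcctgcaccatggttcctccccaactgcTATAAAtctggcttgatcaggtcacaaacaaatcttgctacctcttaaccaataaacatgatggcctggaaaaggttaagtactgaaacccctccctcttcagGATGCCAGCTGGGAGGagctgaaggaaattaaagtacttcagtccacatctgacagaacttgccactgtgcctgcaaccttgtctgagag
Ly6c2 promoter: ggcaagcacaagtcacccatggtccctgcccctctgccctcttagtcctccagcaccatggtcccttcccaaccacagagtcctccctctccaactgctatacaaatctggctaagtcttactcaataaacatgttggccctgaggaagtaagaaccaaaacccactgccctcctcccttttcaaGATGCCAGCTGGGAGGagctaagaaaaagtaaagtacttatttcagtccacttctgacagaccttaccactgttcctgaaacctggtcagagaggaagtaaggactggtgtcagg
Ly6g promoter: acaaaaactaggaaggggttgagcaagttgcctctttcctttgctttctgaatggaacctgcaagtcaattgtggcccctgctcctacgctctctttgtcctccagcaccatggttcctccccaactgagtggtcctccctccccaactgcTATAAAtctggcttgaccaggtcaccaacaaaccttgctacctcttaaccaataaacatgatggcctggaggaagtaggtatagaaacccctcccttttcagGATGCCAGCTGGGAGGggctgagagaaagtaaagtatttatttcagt

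Aligned locally, the windows were 73.8% identical for *Ly6c1* and *Ly6c2* over 282 columns, 76.4% for *Ly6c1* and *Ly6g* over 276, and 70.3% for *Ly6c2* and *Ly6g* over 256. The 16-base run was found in 7 of 32851 windows, which belong to 4 genes, these 3 and *Ly6a2*. *Ly6f*, another gene of the cluster, was not among them. Its window was 87.4% identical to that of *Ly6g* over 230 columns. TATAAA was found in the windows of *Ly6c1* and *Ly6g* and not in that of *Ly6c2*, against 13.6% of all windows when both strands are read. It began at -143 in *Ly6c1* and -99 in *Ly6g*, counted from the start site. The 16-base run began at -40 in *Ly6c1*, -65 in *Ly6c2* and 3 in *Ly6g*, so the start sites of the windows do not line up. Whether TATAAA acts in transcription here was not tested. T-box proteins such as Eomes bind a core half-site, and its letters TCACAC, searched on both strands, were in 14.5% of all windows and in none of the 3. The longer T-box letters AGGTGTGA (1.28% of all windows, overlapping the half-site when it is present), the interferon-stimulated response element (3.44%) and the gamma-activated site TTCNNNGAA (8.30%) were likewise not matched in these 3 windows. A missing match says only that the letters are not in the window.

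In the control library the members spanned more than 3 orders of magnitude. The highest was *Ly6e*, at an RPKM of 248, position 317 among all genes by level. *Ly6a* followed at 79.0 and *Ly6c2* at 12.4. *Ly6k*, at 1.96, was close to the limit for an expressed gene, *Ly6c1* was at 0.20, and *Ly6g* was not listed, so the RNA of this family was almost entirely that of *Ly6e* (72.7% of the summed member RPKM) and *Ly6a* (23.1%). In the Eomes library the order was the same, with *Ly6e* at 170.3, *Ly6a* at 90.6, *Ly6c2* at 25.9, *Ly6k* at 1.55, *Ly6c1* at 1.18 and *Ly6g* at 0.60. The neighbours *Ly6k* and *Ly6c1* (95% counting intervals 0.997 to 2.32 and 0.695 to 1.80) and *Ly6c1* and *Ly6g* (0.299 to 1.07) did not differ there beyond their counting intervals.

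**Figure D1:**
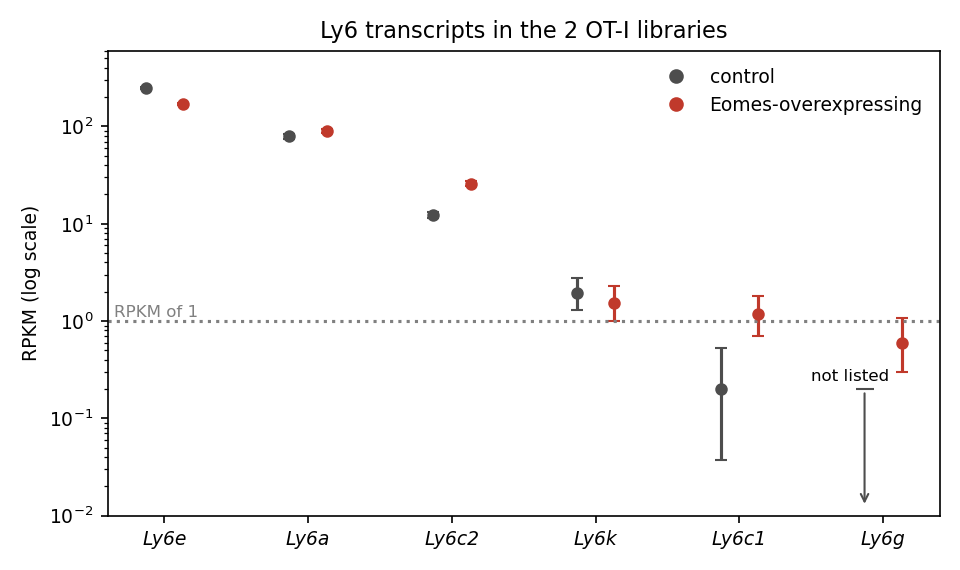
RPKM of the 6 Ly6 members on a log axis in the control library (grey) and the Eomes-overexpressing library (red), 1 library each. Bars are exact Poisson 95% intervals on approximate reads and cover counting error only, the arrow marks *Ly6g* as not listed in control, and the pairs of *Ly6c2* and *Ly6c1* lie apart with the red point higher while *Ly6e* has the grey point higher, at 248 against 170.3.

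By ratio, 2 of the 5 expressed members were at least 1.5-fold higher in the Eomes library, the Ly6C genes *Ly6c1* and *Ly6c2*, against 2.46% of the 9925 expressed genes. None was at least 1.5-fold lower, against 5.19%. *Ly6a*, *Ly6e* and *Ly6k* were within 1.5-fold, so 2 of 5 were past the threshold in either direction, against 7.65% of expressed genes. *Ly6c1* reached an RPKM of 1 only in the Eomes library, so its place in this count was set by the difference itself, and among the members that reached 1 in control only *Ly6c2* was higher past 1.5-fold. The median log2 ratio of the 5, which rests on the same choice, was 0.20, beside -0.0037 over all expressed genes. Without *Ly6c1* the middle values would be those of *Ly6a*, at 0.20, and *Ly6k*, at -0.34. The sign of this median thus depends on counting *Ly6c1*. As a family the members did not move one way: *Ly6a*, *Ly6c1* and *Ly6c2* had ratios above 1, and *Ly6e* and *Ly6k* below.

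*Ly6c2*, 1 of the 2 genes of the Ly6C antigen and the member with the largest positive difference in RPKM, was at 12.4 RPKM in control and 25.9 in the Eomes library. This is a log2 ratio of 1.07, or 2.10-fold, position 58 of the 9925 expressed genes in order of ratio. Approximate reads were 650 and 1354 with the length of the longest annotated transcript, giving an exact (Clopper-Pearson) 95% interval of 0.93 to 1.21 for the log2 ratio. That transcript is a retained-intron model, and with the longest protein-coding transcript of 822 bases, a length chosen after seeing the data, reads were 199 and 415 and the interval 0.82 to 1.32. The ratio was thus larger than counting error in these 2 libraries with each length, which says nothing of how far 2 cultures of the same kind differ. By level the gene moved from position 5069 to position 3130. The gene runs from 75108158 to 75111970 on the minus strand.

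*Ly6c1*, its close copy, was at 0.20 RPKM in control and 1.18 in the Eomes library, a log2 ratio of 2.56 and position 15 in order of ratio. Only about 3 and 19 reads lie behind these values, and the 95% interval of the log2 ratio was 0.91 to 5.07, or 0.43 to 5.80 with the median transcript length. The size of the ratio is therefore poorly set, although both intervals lie above 0. *Ly6c2* was 61.8 times as high as *Ly6c1* in control and 22.0 times as high in the Eomes library. Because of the shared stretches the pair was also summed, which gave 12.6 in control and 27.1 in the other library, 2.16-fold and close to the ratio of *Ly6c2* alone. *Ly6c1* runs from 75044018 to 75048830 on the minus strand.

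*Ly6g*, which encodes the neutrophil antigen recognized by common granulocyte antibodies, was not listed in control and was at 0.60 in the Eomes library, about 11 reads. Against a floor of 3 reads in the control library (RPKM 0.162) it was at least 3.70-fold higher, and the lower end of the counting interval of the log2 ratio was 1.34, or 0.54 with the median transcript length. The gene stayed under an RPKM of 1 in both libraries and was not called expressed. It runs from 75155240 to 75159126 on the plus strand. Of 14 neutrophil and granulocyte precursor markers, 6 were listed in at least 1 library, with a summed RPKM of 2.43 in control and 3.58 in the Eomes library, most of it from *Cxcr2* (2.11 and 2.89). The defining markers *S100a8*, *S100a9*, *Elane*, *Ngp*, *Camp*, *Lcn2*, *Retnlg* and *Mmp8* were not listed in either library. *Ctsg*, a protease of granulocyte precursors, had the pattern of *Ly6g*, not listed in control and at 0.41 in the Eomes library, about 8 reads. Of the others, *Mpo* was not listed in control and at 0.02, *Csf3r* was at 0.10 and 0.13, *Prtn3* at 0.16 and 0.11, and *Ltf* at 0.06 and 0.02. The marker genes of this and the next list are named after their values were seen.

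Ly6C is also a monocyte marker. Of 10 monocyte and macrophage markers 7 were listed, with a summed RPKM of 4.46 in control and 6.39 in the Eomes library, while *Lyz2*, *Csf1r* and *Adgre1* were not listed in either library. *Cd68*, a lysosomal protein of macrophages, was at 2.68 in control and 4.59 in the Eomes library, and *Cd14* at 1.39 and 1.12, the expressed ones of the list. Under an RPKM of 1, *Fcgr3* was at 0.23 and 0.50 (about 6 and 13 reads) and *Itgam* at 0.01 and 0.16 (about 1 and 15 reads), higher in the Eomes library as *Ly6c1*, *Ly6c2* and *Ly6g* were. *Ms4a7* and *Mrc1*, at 0.08 and 0.02 in control, were not listed in the Eomes library. The part of either marker list in the Ly6 values was not tested. The summed monocyte level lay below the RPKM of *Ly6c2* alone in both libraries, but a marker sum does not bound the *Ly6c2* RNA such cells could hold. In RNA of a bulk culture, fewer cells of a type and less RNA per cell cannot be told apart, so these values do not show how many cells carried each transcript.

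*Ly6a*, the gene of Sca-1, had nearly equal levels. Its RPKM was 79.0 in control and 90.6 in the Eomes library, a log2 ratio of 0.20 or 1.15-fold, with about 1483 and 1687 reads and an interval of 0.10 to 0.30. The difference was larger than counting error and smaller than 1.5-fold. The gene lies from 74994877 to 74998031 on the minus strand, 46.0 kb from *Ly6c1*.

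*Ly6e*, an interferon-responsive member expressed in many cell types, was the most abundant of the family and the one that was lower by the largest amount. Its RPKM was 248 in control and 170.3 in the Eomes library, a log2 ratio of -0.55, or 1.46-fold lower. With about 11136 and 7572 reads the interval was -0.59 to -0.50, whose lower end passes 1.5-fold by a narrow margin while the value itself does not. Of 910 genes whose mean RPKM reached 100, the middle 95% had log2 ratios between -0.45 and 0.31, and *Ly6e* lay below that range. Its longest transcript has a GC content of 55.4%, the highest of the 6, and with log2 ratios centred within bins of GC content its value was -0.44. *Ly6e* runs from 74955051 to 74959905 on the plus strand.

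*Ly6k*, best known from testis and sperm, was low in both libraries. Its RPKM was 1.96 in control and 1.55 in the Eomes library, a log2 ratio of -0.34. About 30 and 24 reads gave an interval of -1.15 to 0.51, so no difference was detectable at this depth. The gene runs from 74796874 to 74799986 on the minus strand. The annotated gene *Gm17189*, from 74784065 to 74800640 on the plus strand, spans it. *Gm17189* was not listed in either library, and whether strand was used in counting is not given in the sources used here.

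**Figure D2:**
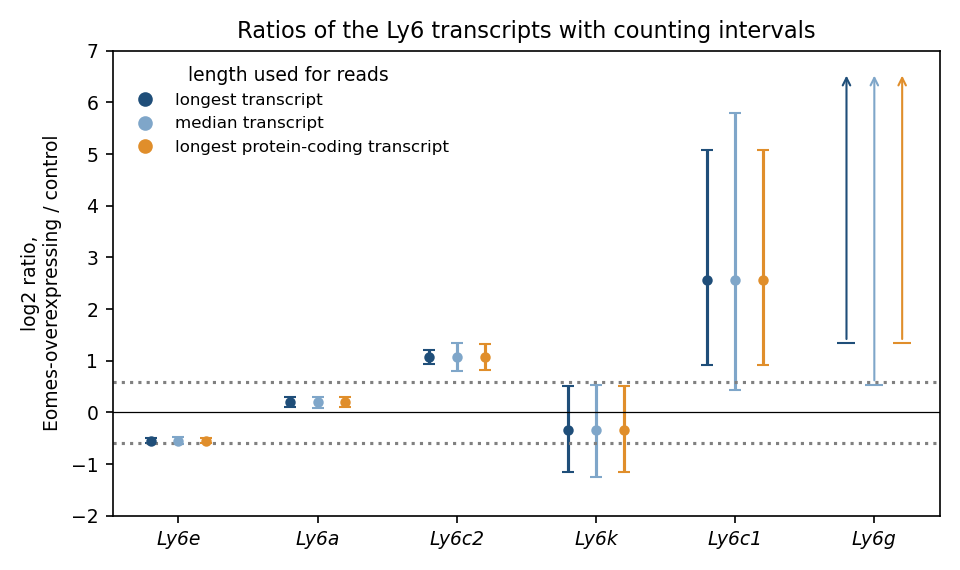
Log2 ratios (Eomes-overexpressing over control) of the 6 members with 95% counting intervals, for reads approximated with the longest transcript, the median transcript and the longest protein-coding transcript. Dotted lines mark 1.5-fold, arrows are open upper ends for *Ly6g*, which was not listed in control, and the intervals of *Ly6c2* lie above the upper line with each length while those of *Ly6k* span 0.

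Abundance sets how much weight a ratio bears. Among the 5534 genes with a mean RPKM of 5 to 50, where *Ly6c2* lies, the middle 95% had log2 ratios between -0.62 and 0.47, and 1.21% of genes were at least 1.5-fold higher. *Ly6c2*, at 1.07, lay above that range. Among the 2287 genes with a mean RPKM of 0.1 to 1, which hold *Ly6c1* and *Ly6g*, the range was -2.66 to 1.78 and 15.6% of genes were at least 1.5-fold higher. The 1.5-fold count thus means less for *Ly6c1* than for *Ly6c2*, although the log2 ratio of *Ly6c1*, 2.56, also lay above its range. *Ly6a* (50 to 100) and *Ly6k* (1 to 5) lay inside the ranges of their neighbours in level.

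**Figure D3:**
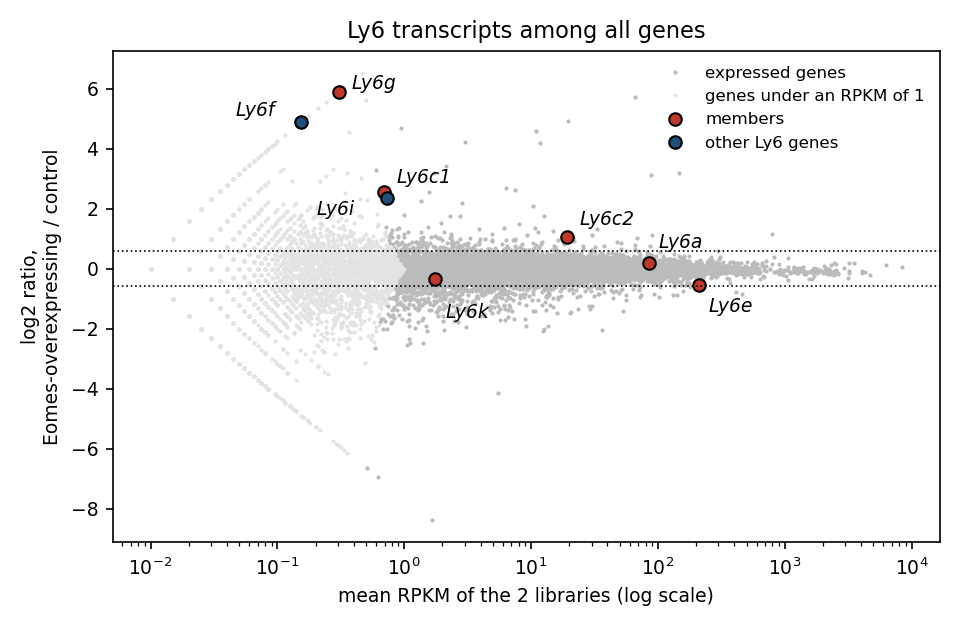
Log2 ratio (Eomes-overexpressing over control) against mean RPKM on a log axis for all genes, with the 6 members in red and *Ly6i* and *Ly6f* in blue. The dotted lines mark 1.5-fold, genes not listed in 1 library were set to 0.01 so that the heights of *Ly6g* and *Ly6f* are not fold estimates, and *Ly6c2* sits above and *Ly6e* below the narrow band of genes of like level.

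*Ly6e* had the lowest ratio of the 6 members. Divided by *Ly6e*, the RPKM of each of the other 5 was therefore higher in the Eomes library by construction, for *Ly6k* within its counting error. *Ly6e* was 20.1 times as high as *Ly6c2* in control and 6.57 times as high in the Eomes library. The share of *Ly6c2* in the summed member RPKM was 3.61% in control and 8.93% in the Eomes library, and that of *Ly6a* was 23.1% and 31.2%. That of *Ly6e* was 72.7% and 58.7%. Summed over the 6 members, RPKM was 342 in control and 290.2 in the Eomes library, a log2 ratio of -0.24. Without *Ly6e*, the other 5 summed to 93.5 and 119.9, a log2 ratio of 0.36, so the direction of the sum was that of *Ly6e*.

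Among the other 15 Ly6 genes of the cluster looked for, 5 were listed and 1 was expressed. This was *Ly6i*, at 0.24 in control and 1.22 in the Eomes library, with about 5 and 27 reads, a log2 ratio of 2.35 and an interval of 1.05 to 4.18. *Ly6i* lies from 74979534 to 74983430, between *Ly6e* and *Ly6a* on the map, and its coding sequence was 86.4% identical to that of *Ly6a*, yet its pair of values was among the 3 nearest to that of *Ly6c1*. *Ly6f*, named after its value was seen, was not listed in control and was at 0.30 in the Eomes library, about 5 reads, and its counting interval reached below 0 (lower end -0.11). The other listed ones had lower values in the Eomes library and are also named after their values were seen. *Lynx1* was at 0.43 in control and 0.20, about 34 and 16 reads, with an interval of the log2 ratio of -2.03 to -0.18. *Ly6m* was at 0.18 and 0.12, about 11 and 8 reads, a difference not detectable at this depth, and *Ly6d* was at 0.08 in control, about 1 read, and not listed in the other library. Along the map, *Ly6i*, *Ly6c1*, *Ly6c2*, *Ly6g* and *Ly6f* had a ratio past 1.5-fold or a listing only in the Eomes library. They were interrupted by *Ly6a*, at 1.15-fold. These genes were picked by their higher values in the Eomes library, and of them only *Ly6c2* reached an RPKM of 1 in control. The others had a mean RPKM of 0.1 to 1, where 15.6% of 2287 genes were at least 1.5-fold higher. Their order on the map is therefore a description only. On the low side of *Ly6i* no gene of the cluster was higher past 1.5-fold. *Them6*, expressed there and also named after its values were seen, was at 23.0 and 23.2.

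**Figure D4:**
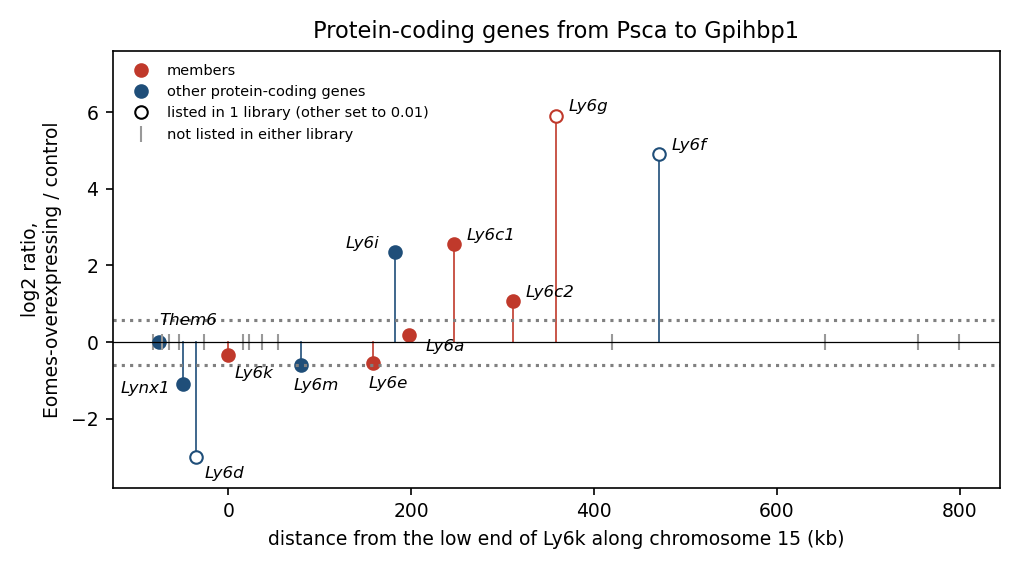
Log2 ratios (Eomes-overexpressing over control) of the protein-coding genes from *Psca* to *Gpihbp1* by distance in kb from the low end of *Ly6k* on chromosome 15. Members are red, other genes blue, open points were listed in 1 library with the other set to 0.01, and ticks mark genes not listed in either. The upper points lie from *Ly6i* to *Ly6f* with *Ly6a* near 0 among them, and all of them but *Ly6c2* were under an RPKM of 1 in control.

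From *Psca* to *Gpihbp1* the annotation holds 50 genes over 885 kb, 25 of them protein-coding, of which 12 were listed and 7 expressed. In the 1000 kb on either side, 33 protein-coding genes were expressed. None of these was at least 1.5-fold higher, and 1, *Dgat1*, was at least 1.5-fold lower, at 19.9 in control and 10.1 in the Eomes library. Their median log2 ratio was -0.06. *Ly6c2*, expressed in both libraries, was at a log2 ratio of 1.07. *Ly6c1* and *Ly6i* counted as expressed only through the Eomes library and are not set against these genes.

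Other groups tied to the family were counted next to it. The Ly6 and uPAR genes outside the cluster gave 1 expressed gene of 23, *Ly6g5b*, which was lower past 1.5-fold, at 8.93 in control and 5.81 in the Eomes library. The machinery that builds and attaches the GPI anchor on which most members depend was even between the libraries. Of its 30 genes 28 were expressed and all 28 were within 1.5-fold, with a median log2 ratio of -0.03 and summed RPKM of 552 and 538. Of 14 expressed genes for other GPI-anchored lymphocyte proteins, 1 was higher and 2 were lower, against 2.46% and 5.19% of all expressed genes, at a median of -0.11. The higher one was *Cd24a*, a small heavily glycosylated surface protein, at 6.73 in control and 15.8 in the Eomes library. The lower ones were *Sema7a*, at 33.1 and 20.02, and *Bst1*, at 1.15 and 0.69. *Bst1* reached an RPKM of 1 only in control, so its place in this count was set by the difference itself.

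Of 19 expressed interferon-induced genes, 5 had log2 ratios above 0 and 14 below, at a median of -0.31. Of the 19, 0 were at least 1.5-fold higher and 5 at least 1.5-fold lower, against 2.46% and 5.19% of all expressed genes. Of the lower ones, *Isg15*, at 2.22 in control and 0.99 in the Eomes library, counted as expressed only through control. It is named after its values were seen. By ratio, the largest differences among the expressed ones were those of *Ifi27l2a*, at 14.4 in control and 3.84 in the Eomes library, and *Gbp2*, a GTPase that acts on pathogens inside cells, at 8.97 and 3.52. *Ly6e*, at -0.55, had the sign of that median, and *Ly6a*, *Ly6c1* and *Ly6c2*, with interferon-responsive genes among them, had the opposite sign. Of 11 expressed surface genes of CD8 T cell differentiation, 1 was higher and 4 were lower, against the same 2.46% and 5.19%, at a median of -0.38. *Klrg1*, a marker of terminal effector cells, was at 0.45 in control and 1.56 in the Eomes library, whereas *Ccr7* and *Cxcr3*, receptors that guide T cells to lymph nodes and to inflamed tissue, had log2 ratios of -1.35 and -1.27. *Ly6c2* shared the direction of *Klrg1* and not that of *Ccr7* and *Cxcr3* in these libraries. *Klrg1*, with about 13 reads in control and 43 in the Eomes library, reached an RPKM of 1 only in the latter. Its place in the count of 11 was therefore set by the difference itself. The lists are descriptions of 1 library against 1, and their medians were not tested.

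**Figure D5:**
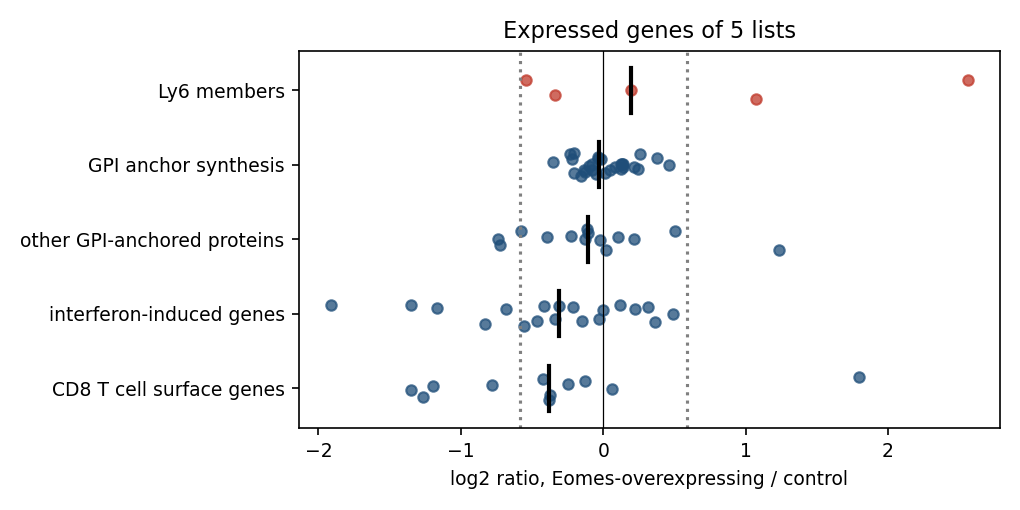
Log2 ratios (Eomes-overexpressing over control) of the expressed genes in 5 lists, each point a gene, with the median of each list as a black bar and 1.5-fold as dotted lines. The 5 Ly6 members spread from -0.55 to 2.56, while the 28 GPI anchor genes all lie between the dotted lines.

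By the distance between the 2 log2 values of a gene, which rests on 2 libraries only, the expressed gene nearest to *Ly6c2* was *Fasl*, the Fas ligand by which cytotoxic cells kill, at 13.8 in control and 27.1 in the Eomes library (distance 0.17), followed by *Lrrk1* and *Nedd4*. The nearest to *Ly6c1* were *Sh2d1b1*, an adaptor of SLAM receptors, at 0.21 and 1.21 (0.08), *Ptger3* and *Ly6i*. *Ly6e* lay closest to *Cd2*, an adhesion receptor of T cells, at 265 in control and 170.8 in the Eomes library (0.09), then *Cdkn1a* and *Rpl31-ps12*. The genes nearest to *Ly6a* were *Pdia4*, *Sephs2* and *Fam96a*, and the genes nearest to *Ly6k* were *Ctso*, *Cacnb3* and *Kif3a*.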

How the data were processed

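Total RNA of 2 cultures was sequenced by the authors on an Illumina HiSeq instrument, filtered with SOAPnuke and mapped to mm10 with HISAT2 and Bowtie2 per the submitters' processing notes, and RSEM gave the values. Tool versions, annotation, read length and strand setting are not given in the sources used here. The authors deposited FPKM values with 2 decimals, 1 per gene symbol from 0.01 upward, which their methods call RPKM. Symbols turned into dates were left out, 20 in control and 19 in Eomes-overexpressing cells. The members and gene lists were chosen with earlier results of these data known.

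Ratios are of the Eomes-overexpressing library to control on the log2 scale, with unlisted values set to 0.01. With 1 library per condition no test was made. Depth was read from the steps of low values in genes with 1 annotated transcript of 400 to 3000 bases (325 genes in control, 353 in Eomes-overexpressing cells), where 64.0% and 62.6% of values fell on whole steps, against 33.9% and 33.4% that the rounding width alone gives. RPKM, depth and transcript length then gave approximate reads, so intervals (exact Poisson for a level, Clopper-Pearson for a ratio, 95%) cover counting error only and a floor is 3 reads. The authors' transcript lengths are unknown, so main reads use the longest GENCODE vM21 transcript. The steps were tested on data simulated with the same GENCODE lengths. That test cannot show error that comes from the authors' unknown lengths.

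Genes named were the 6 members, expressed Ly6 genes of the cluster and *Ly6i*, *Eomes*, up to 2 genes of largest ratio past 1.5-fold in each direction per list, and the 3 expressed genes nearest to each expressed member. Alternatives were pseudocounts of 0.1 and 1, no minimum RPKM or 5, a 2-fold threshold, scaling to TPM, by a trimmed mean of log ratios or to the median, centring in 20 bins of GC content, summed members and other transcript lengths. Python 3.11.15, numpy 2.4.6, pandas 2.3.3, scipy 1.17.1, Biopython 1.88 and matplotlib 3.10.9 were used.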

Additional observations from a re-analysis of the deposited data

How the results depend on the processing

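Of 38 recomputed member log2 ratios, 35 stayed inside the counting interval. A pseudocount cannot turn the sign of a ratio, and the scalings moved all genes alike by at most 0.03, so the direction under these was fixed by construction. The 3 outside were *Ly6c1* and *Ly6g* with a pseudocount of 1 (0.86 and 0.68), which compresses ratios of low genes by construction, and *Ly6e* centred by GC content (-0.44). A minimum RPKM of 5 leaves 1 member higher, *Ly6c2*, since *Ly6c1* then drops out. Expressed genes past the threshold numbered 244 higher and 515 lower. They were 69 and 175 at 2-fold, 1356 and 2088 with no minimum RPKM, 95 and 213 at a minimum of 5, and 118 and 285 with a pseudocount of 1. Summing the 6 members in place of taking the median of the 5 expressed ones gave -0.24 against 0.20. Reads from the protein-coding length, chosen after seeing the data, or from the median transcript length changed the intervals and not the ratios. No paired analysis was possible because each condition has 1 library. Leaving out a replicate was not possible for the same reason. At this depth, values of *Ly6c1*, *Ly6g* and *Ly6k* rest on at most about 30 reads each.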

Other observations

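The 4 NK cell markers summed to an RPKM of 0.36 in control and 5.74 in the Eomes library, all of the latter from *Klrb1c*, the gene of NK1.1, which was at 0.31 and 5.74. *Ncr1* and *Klra8* were not listed in either library. The 4 CD4 T cell markers summed to 14.3 and 11.8, the 6 B cell markers to 2.87 and 1.62, the 8 dendritic cell markers to 13.8 and 8.05, the 4 erythroid markers to 0.39 and 0.33, and the 5 vascular and stromal markers to 6.15 and 4.42, each lower in the Eomes library. Most of the CD4 T cell sum came from *Zbtb7b*, at 13.8 in control and 11.6 in the Eomes library, and no erythroid marker was above 0.30. The part of any of these cells in the Ly6 values was not tested. *Klrb1c*, *Ncr1*, *Klra8* and *Zbtb7b* are named here after their values were seen.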
